A study of Mus musculus with 4 samples.

Results

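Conventional type 1 dendritic cells (cDC1 cells) were picked out of a single-cell RNA-seq study of the popliteal lymphatic vessels (PLVs) and the superficial saphenous vein (SSV) of the mouse hindlimb. A cell was a member when it had at least 2 unique molecular identifiers (UMIs, 1 per captured mRNA molecule) of *Xcr1* and *Clec9a* together, fewer than 20 *Dcn* UMIs per 10000 UMIs, and fewer than 10 UMIs of the complement genes *C1qa*, *C1qb* and *C1qc* together. The gate found 76 of 5488 cells in the wild-type (WT) library and 50 of 3391 cells in the TNF-Tg library, 126 of 8879 cells in both. The cells were thus selected on measured UMIs of *Xcr1*, *Clec9a*, *Dcn* and the C1q genes, whose levels are no finding, and what follows concerns other genes.

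The WT library came from wild-type mice and the TNF-Tg library from mice that carry a human TNF transgene and develop inflammatory-erosive arthritis. Both were on the C57BL6 background and 9 months old. Each library was made from 3 pooled male mice, so there was 1 library per condition, and mouse, library preparation and genotype cannot be told apart. Both PLVs and the SSV were digested together and live cells were sorted by high forward and side scatter, a gate set for muscle cells. Mice were not tested singly, and no tissue other than these vessels and what adheres to them was sampled. The study also holds 2 libraries of *Cspg4*-Cre;Ai9-tdTomato cells sorted for the tdT reporter, of 1504 and 454 cells, which the selection of members did not use.

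The cDC1 cell is a dendritic cell specialised in taking up material from dead cells and showing it on MHC class I to CD8 T cells, which is called cross-presentation. XCR1 is the receptor for a chemokine made by T and NK cells, and CLEC9A (DNGR-1) binds actin exposed on dead cells. The lineage depends on the transcription factors IRF8, BATF3 and ID2, grows in response to FLT3 ligand, and requires WDFY4 for cross-presentation of cell-associated antigen. On the mouse genome mm10, *Xcr1* lies on chromosome 9 (123852315 to 123862029, minus strand), *Clec9a* on chromosome 6 (129408862 to 129424763, plus strand), *Irf8* on chromosome 8 (120736358 to 120756694, plus strand), *Batf3* on chromosome 1 (191097847 to 191108945, plus strand) and *Wdfy4* on chromosome 14 (32959547 to 33185508, minus strand).

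The summed cDC1 cells held 1361588 UMIs in WT and 962176 UMIs in TNF-Tg. The median cell had 17075 UMIs in WT (range 8142 to 35082) and 17127 UMIs in TNF-Tg (range 9126 to 37399). Medians of 3346.5 and 3348 genes were detected, and a median of 1.39% and 1.21% of UMIs were mitochondrial. Levels are given as CPM, the UMIs of a gene per 1000000 UMIs summed over the cells of a library, with exact Poisson 95% intervals that cover counting error only. A gene without a UMI could have a level of up to 2.20 CPM (WT) and 3.12 CPM (TNF-Tg), the levels that 3 UMIs would give. The libraries shared 2 cell barcodes, none of them in a cDC1 cell. A doublet caller marked 1 WT and 0 TNF-Tg cDC1 cells, against 137 (2.50%) and 70 (2.06%) cells of the whole libraries.

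The label was first checked on 24 cDC1 markers outside the gate, a list chosen with earlier results of these data known. In the 2 sums, *Irf8* stood at 1585 CPM in WT (95% interval 1519 to 1653) and 1176 CPM in TNF-Tg (1109 to 1247). These cells made up 1.38% and 1.47% of the libraries and held 45.6% and 31.2% of all *Irf8* UMIs in them. *Gcsam*, a signalling adaptor of lymphocytes and cDC1 cells, was more restricted still, with 76.7% of its WT UMIs and 74.1% of its TNF-Tg UMIs in these cells. *Wdfy4* had 402 and 272 CPM in WT and TNF-Tg, and was detected in 71 of 76 and 41 of 50 cells. After every cell was thinned to 8000 UMIs, *Wdfy4* was detected in 90.8% and 66.0% of cDC1 cells but in 0.678% and 0.456% of the *Dcn*-high stromal cells, which should lack it. *Batf3* had 225 and 261 CPM, *Tlr3*, the endosomal sensor of double-stranded RNA, 175 and 99.8 CPM, and the lysosomal amidase *Naaa* 1157 and 923 CPM. *Cd8a*, which marks the lymphoid-organ form of the lineage, had 5.88 and 9.35 CPM, and *Itgae*, which encodes CD103 of the tissue form, 62.4 and 39.5 CPM.

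Markers of early myeloid progenitors were low. Of 13 such genes, *Mpo*, *Elane*, *Ctsg*, *Ms4a3* and *Sox4* were without a UMI in both libraries, and the list summed to 145 CPM (WT) and 154 CPM (TNF-Tg). *Kit*, the stem cell factor receptor, held the most UMIs of the list, at 120 and 99.8 CPM. *Ccr7*, the receptor with which mature dendritic cells enter lymphatics, was without a UMI in either library, and the 14 genes of mature dendritic cells summed to 65.4 and 110 CPM. The 9 T and NK cell genes summed to 11.0 and 19.7 CPM. Of the 6 B cell genes, *Cd79a*, *Ms4a1* and *Ebf1* were without a UMI, and *Ighm* stood at 119 and 118 CPM.

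The 12 macrophage markers summed to 178 and 73.8 CPM in WT and TNF-Tg, with *Mertk* and *Fcgr1* without a UMI and *Apoe* the most counted in WT (106 CPM). The 10 monocyte markers summed to 848 and 1062 CPM, most of it *Ccr2* (494 and 288 CPM) and *Plac8* (228 and 588 CPM), while *Fcgr1* was without a UMI. The 7 neutrophil markers summed to 859 CPM (WT) and 15.6 CPM (TNF-Tg). Of the *S100a8* and *S100a9* UMIs in the cDC1 cells of both libraries, 96.0% and 94.9% came from 1 WT cell, the one marked as a doublet. The 8 plasmacytoid dendritic cell markers summed to 219 CPM (WT) and 875 CPM (TNF-Tg), with *Bst2* the most counted in both (165 and 507 CPM). Stromal, endothelial, mast cell and red cell lists summed to at most 155 CPM each.

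Not every gated cell carried the lineage program. *Wdfy4*, *Batf3*, *Cadm1*, *Tlr3* and *Naaa* together had fewer than 5 UMIs in 1 of 76 WT cells and in 11 of 50 TNF-Tg cells (22%, exact 95% interval 11.5 to 36.0%). The other 75 and 39 cells are called marker-supported. Levels of these 5 genes in the 11 cells follow from the split. Of genes it did not use, *Id2* and *Ifi205* had 0 UMIs in the 11 TNF-Tg cells, against 928 and 791 CPM in the 39 marker-supported TNF-Tg cells. Their MHC class II gene *H2-Ab1* stood at 529 CPM against 7012 CPM. They led instead in *Cd209d* (416 against 0 CPM), *Siglech* (346 against 2.44 CPM), *Ly6c2* (515 against 18.3 CPM), *Cd7* (621 against 30.5 CPM) and *Tcf4* (564 against 31.7 CPM), and *Bst2* reached 2293 against 199 CPM. Single cells of the 11 held 17 and 23 UMIs of *Siglech*, and none of the others held more than 2. Of the 59 *Cd209d* UMIs, 35 were in 1 cell. *Siglech* encodes a lectin of plasmacytoid dendritic cells, *Tcf4* their main transcription factor, and *Ly6c2* a surface protein of monocytes. These 11 cells are described here by these genes and given no other name. Results for TNF-Tg are followed by their counts or values in marker-supported cells where these changed a call.

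**Figure D1:**
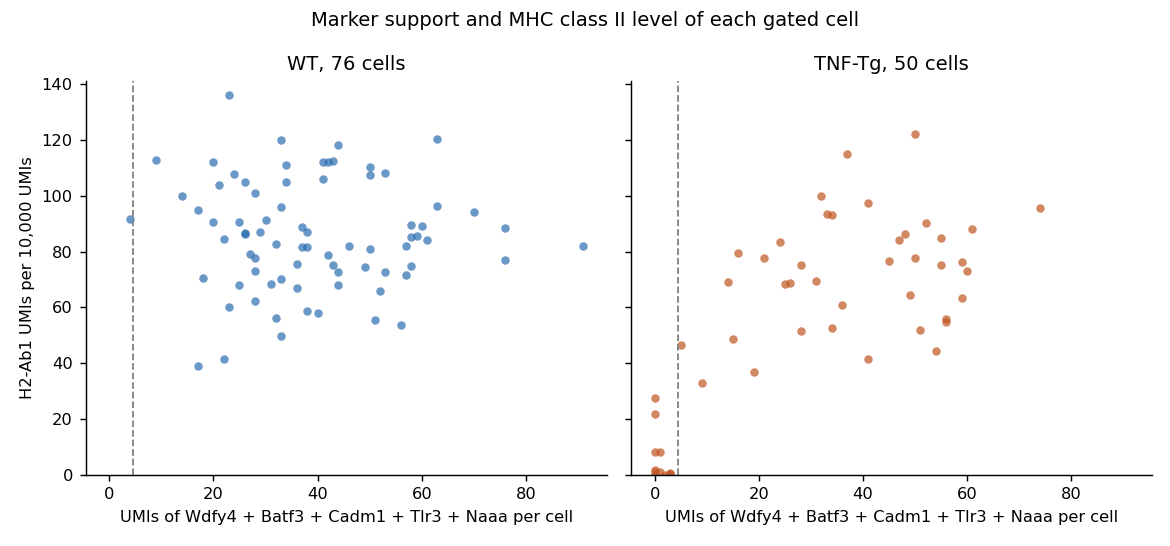
Each point is 1 cDC1-gated cell, with its UMIs of *Wdfy4*, *Batf3*, *Cadm1*, *Tlr3* and *Naaa* together on the x axis and its *H2-Ab1* UMIs per 10000 UMIs on the y axis, for WT (left, 76 cells) and TNF-Tg (right, 50 cells). The dashed line parts cells with fewer than 5 marker UMIs, 1 in WT and 11 in TNF-Tg, and the TNF-Tg ones sit at the bottom left.

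Some members lay close to the threshold. Exactly 2 UMIs of *Xcr1* and *Clec9a* were held by 10 WT and 22 TNF-Tg members, and their summed *Wdfy4* level was 177 and 136 CPM. Just outside, 19 WT and 35 TNF-Tg cells held 1 UMI, with 132 and 125 CPM of *Wdfy4*. Members with at least 3 UMIs numbered 66 and 28 and had 430 and 356 CPM. The number of members near the threshold thus differed between the libraries. Of the TNF-Tg members, 12 of the 22 with exactly 2 UMIs were marker-supported, and 27 of the 28 with at least 3. In WT these were 9 of 10 and 66 of 66. The 11 TNF-Tg cells with few markers held no *Xcr1* UMI and passed the gate on *Clec9a* alone.

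cDC1 cells were 1.38% of the WT cells (exact 95% interval 1.09 to 1.73%) and 1.47% of the TNF-Tg cells (1.10 to 1.94%). The log2 ratio of the TNF-Tg share to the WT share was 0.09 with an interval of -0.45 to 0.62, so no difference was detectable at this depth. Counting marker-supported cells alone gave 1.37% and 1.15%, and a log2 ratio of -0.25 (-0.85 to 0.33). Asking for at least 1 UMI of both *Xcr1* and *Clec9a* left 65 and 19 cells and gave -1.08 (-1.90 to -0.32). The direction therefore turned on how the members were defined, and the sort for high scatter set which cells could be counted. There is no replicate check of either share.

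**Figure D2:**
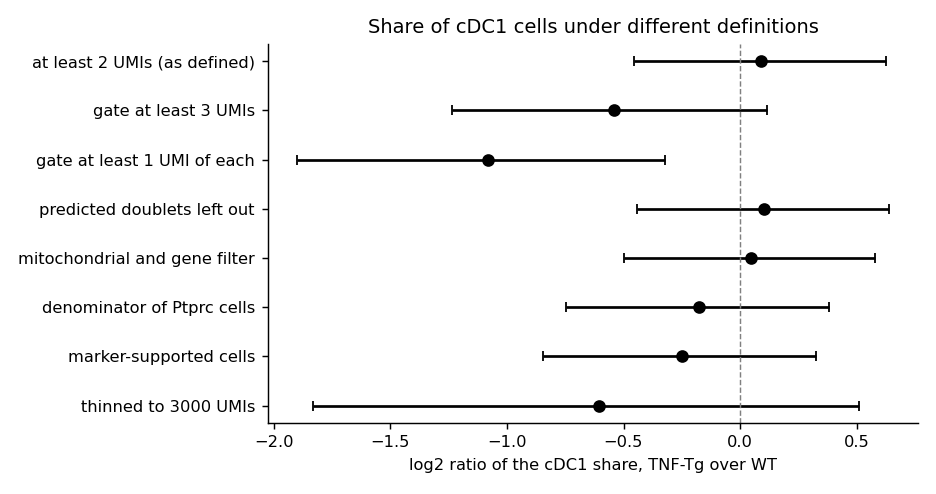
The log2 ratio of the TNF-Tg to the WT share of cDC1 cells (x axis) under 8 definitions (y axis), points with exact 95% intervals for counting error. The ratio as defined was 0.09, the stricter *Xcr1* and *Clec9a* rules lay at -0.54 and -1.08, and only the interval of the last excluded 0.

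Cycling and mature cells were sought within the class. At least 2 UMIs of *Mki67* and *Top2a*, genes of dividing cells, were held by 9 of 76 WT cells (11.8%, exact interval 5.56 to 21.3%) and 10 of 50 TNF-Tg cells (20%, 10.0 to 33.7%), and these intervals overlapped. Thinned to 3000 UMIs, the shares were 3.95% and 10.0%. At least 3 UMIs of *Ccr7*, *Fscn1* and *Ccl22* were held by 1 WT cell and 0 of 50 TNF-Tg cells, which allows a share of up to 6%.

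cDC1 cells were next compared with 3 other myeloid classes of the same libraries, which lacked *Xcr1*, *Clec9a* and T cell receptor UMIs and are named for their gates. All had fewer than 20 *Dcn* UMIs per 10000 UMIs. Cd209a dendritic cells (at least 2 *Cd209a* UMIs and fewer than 10 C1q UMIs) numbered 241 in WT and 185 in TNF-Tg. C1q macrophages (at least 10 C1q UMIs) numbered 1792 and 456, and Ly6c2 monocytes (at least 2 *Ly6c2* UMIs and 1 *Ccr2* UMI) 54 and 456. The monocytes also had fewer than 10 C1q UMIs and no UMI of *Cd209a* or of *Retnlg*. UMIs were summed by class and library and the 8 sums were tested with edgeR's quasi-likelihood test, with library as a block, over 10689 genes at an adjusted p under 0.01. The classes were gated from the same cells and each was measured in 2 libraries, so these p-values describe how well a gene parted the classes across these libraries and say nothing of other mice.

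Against Cd209a dendritic cells, 70 genes were higher in cDC1 cells (0.655%) and 78 lower (0.73%), 1.38% of those tested. Without the library as a block, 6 were higher and 5 lower in edgeR, and DESeq2 with the block called 179 and 190. The cDC1 markers were mostly on the higher side, 17 of 24 against 0.655% of all genes, with a median log2 fold change of 3.27 over the list and -0.04 over all genes. These markers were known to define the class and are a check of the label. The list was chosen with earlier results of these data known, so the check is not independent of them. *Irf8*, the master regulator of the lineage, stood at 1585 and 1176 CPM in WT and TNF-Tg cDC1 cells and at 6.66 and 58.9 CPM in Cd209a dendritic cells, a log2 fold change of 5.70 ± 0.79 (SE, adjusted p = 0.0052). The groups did not overlap. *Gcsam* had 145 and 134 CPM against 0.238 and 0 CPM, and *Tlr3* 175 and 99.8 CPM against 1.66 and 2.88 CPM (6.06 ± 0.41, adjusted p = 0.00025). *Batf3*, by contrast, had 225 and 261 CPM against 181 and 55.2 CPM and missed the threshold (1.30 ± 0.36, adjusted p = 0.084). *Flt3*, the growth factor receptor of dendritic cells, likewise missed it, at 174 and 169 CPM against 66.6 and 85.3 CPM (adjusted p = 0.11).

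**Figure D3:**
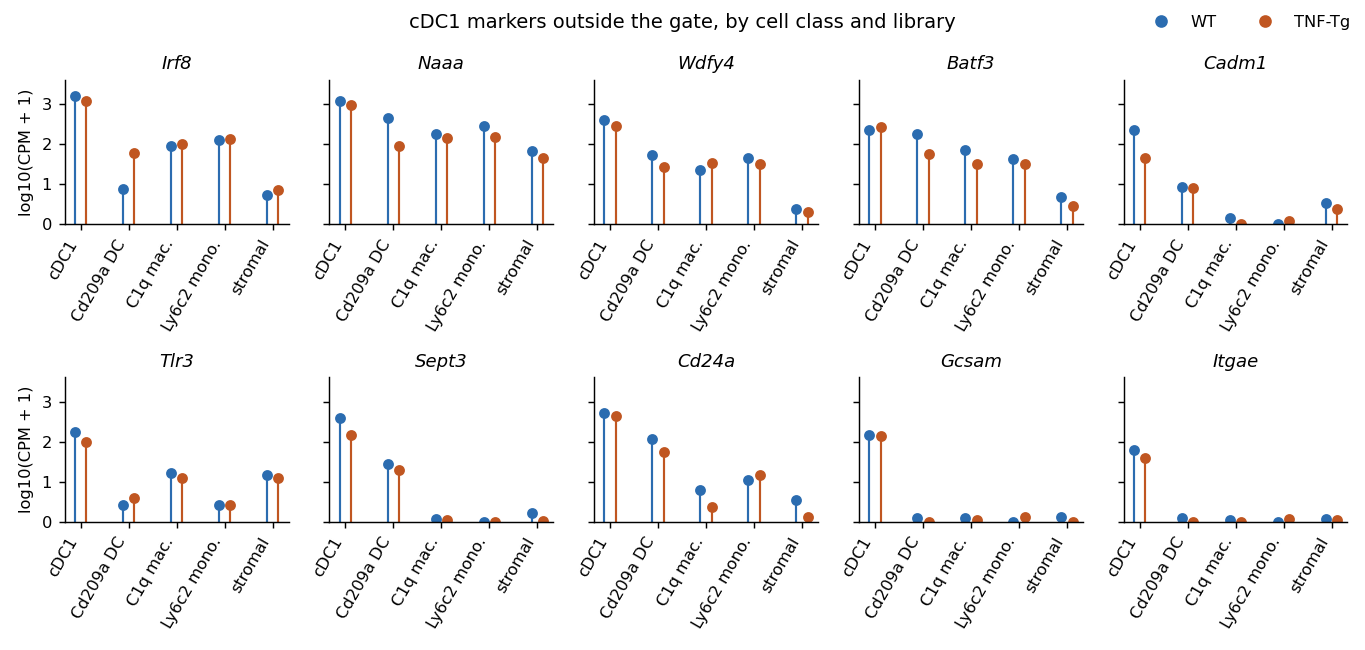
Level of 10 of the 24 cDC1 markers outside the gate, as log10 of CPM plus 1 (y axis), in cDC1 cells, Cd209a dendritic cells, C1q macrophages, Ly6c2 monocytes and *Dcn*-high stromal cells (x axis). Each point is 1 class summed in 1 library, WT in blue and TNF-Tg in orange, and cDC1 cells were highest for these 10 genes in both libraries. The other markers are not drawn, among them *Cd36*, which was higher in C1q macrophages.

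Genes were ranked among those with at least 50 CPM in the higher class in both libraries, here and in the comparisons that follow, which left out genes of larger change at lower levels, among them *Cxcr3*, *Itgae*, *Gpr141b*, *Cadm1* and *Havcr2*. The 12 with the largest positive change held 7 of the 24 markers, *Irf8*, *Gcsam*, *Tlr3*, *Wdfy4*, *Ifi205*, *Rab7b* and *Sept3*. Outside the marker list they included *Kit* (120 and 99.8 CPM in cDC1 cells, 3.81 and 10.7 CPM in Cd209a dendritic cells, log2 fold change 4.08 ± 0.48, adjusted p = 0.0027). Of the markers, *Ifi205*, an interferon-inducible gene of the HIN-200 family, had 436 and 675 CPM against 3.57 and 12.8 CPM (6.24 ± 0.54, adjusted p = 0.00072). *P2ry14*, the receptor for UDP-glucose, had 56.6 and 61.3 CPM against 4.04 and 5.35 CPM. The other genes outside the list were *Pdia5*, a protein disulfide isomerase, *Txndc16* and *Rtl8b*. The marker *Sept3*, a septin otherwise typical of neurons, had 386 and 146 CPM against 26.2 and 18.5 CPM, and 73.3% and 63.6% of its UMIs in each library lay in cDC1 cells.

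Of the 12 genes with the largest negative change, *Mgl2* and *Clec10a* encode galactose-binding lectins. *Mgl2* had 9.55 and 0 CPM in WT and TNF-Tg cDC1 cells against 1150 and 165 CPM (-6.98 ± 0.81, adjusted p = 0.0025). *Sirpa*, the receptor for CD47 that marks the other conventional lineage, had 5.88 and 15.6 CPM against 153 and 123 CPM (-3.74 ± 0.34, adjusted p = 0.0009). *Itgam*, which encodes CD11b, had 13.2 and 9.35 CPM against 319 and 114 CPM. The Cd209a class itself held macrophage markers at a sum of 1308 and 407 CPM, and their part in these differences was not tested. The mannose receptor *Mrc1*, the chemokine *Ccl9*, *Clec4a3*, *F13a1*, *Gda*, *Lilrb4a*, *Lrp1* and *Tmem176a* completed the 12.

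The promoters of the 70 higher genes were read for the short motifs to which factors of this lineage bind. IRF8 binds DNA with partners, at interferon-response elements and at ETS-IRF elements, and BATF3 with JUN at TGANTCA, where N is any base. The interferon-response motif was read as GAAA, any 2 bases and GAAA, and the ETS-IRF motif as GGAA, any 2 bases and GAAA. RefSeq promoters (GRCm38.p6, 250 bases before to 50 after the start) were matched for 55 of the 70 genes and searched on both strands. The interferon-response motif was found for 6 of 55 genes (10.9%), against 4.16% of 8489 tested genes and 18.0% of 61 matched genes on the lower side, so it did not part higher from lower genes. TGANTCA was found for 4 genes (7.27%, against 6.08%) and the ETS-IRF motif for 0 (against 3.07%). A match is a string in a window and not a bound site. The promoters of *Ifi205*, *Gpr141b* and *Tlr11*, 3 of the 6, are shown 5′ to 3′ on the gene's strand because these genes were higher in cDC1 cells in both libraries, with capitals on the interferon-response matches of either strand.
Ifi205 promoter, chr1:174031706-174032005, minus strand: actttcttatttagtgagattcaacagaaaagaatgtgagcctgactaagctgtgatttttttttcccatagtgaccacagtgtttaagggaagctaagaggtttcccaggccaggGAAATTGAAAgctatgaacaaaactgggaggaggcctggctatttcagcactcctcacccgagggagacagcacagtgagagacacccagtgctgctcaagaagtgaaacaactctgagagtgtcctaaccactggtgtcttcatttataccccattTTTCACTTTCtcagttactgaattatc
Gpr141b promoter, chr13:19732902-19733201, minus strand: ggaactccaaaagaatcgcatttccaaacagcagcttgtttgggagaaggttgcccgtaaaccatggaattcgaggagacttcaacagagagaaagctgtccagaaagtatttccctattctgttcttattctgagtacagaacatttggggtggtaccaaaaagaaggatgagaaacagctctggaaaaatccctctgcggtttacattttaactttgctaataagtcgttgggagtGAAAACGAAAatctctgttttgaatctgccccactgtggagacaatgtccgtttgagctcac
Tlr11 promoter, chr14:50357664-50357963, plus strand: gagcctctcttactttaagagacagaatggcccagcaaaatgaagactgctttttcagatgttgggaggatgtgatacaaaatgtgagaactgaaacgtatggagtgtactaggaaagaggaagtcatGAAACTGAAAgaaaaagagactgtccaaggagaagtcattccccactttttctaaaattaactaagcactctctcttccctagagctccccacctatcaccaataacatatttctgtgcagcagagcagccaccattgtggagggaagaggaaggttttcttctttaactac
*Ifi205* held 1 match on its own strand and 1 on the opposite strand within these 300 bases, and the others 1 on their own strand. *Tlr11*, an endosomal sensor of microbial profilin, had 53.6 and 20.8 CPM in WT and TNF-Tg cDC1 cells and 8.09 and 0.412 CPM in Cd209a dendritic cells (3.35 ± 0.51, adjusted p = 0.0072).

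Against C1q macrophages, 854 genes were higher in cDC1 cells (7.99%) and 946 lower (8.85%), 16.8% of those tested, and 22 of 24 cDC1 markers were higher (7.99% of all genes). *Btla*, an inhibitory receptor, had 74.2 and 93.5 CPM in WT and TNF-Tg cDC1 cells against 0.087 and 0 CPM. *Cd24a* had 513 and 437 CPM against 5.13 and 1.45 CPM (7.42 ± 0.45, adjusted p = 1.4e-05), and *Flt3* 174 and 169 CPM against 0.783 and 2.57 CPM (7.24 ± 0.51, adjusted p = 2e-05). The other genes with the largest positive change were *Sept3*, *Gcsam*, *Ifi205*, *Klrb1b*, *H2-Oa*, *H2-Ob*, *Gpr171*, the tetraspanin *Cd9* and *Ass1*, an enzyme of arginine synthesis.

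On the lower side, 8 of the 12 genes had no UMI in any cDC1 cell of either library: *C3ar1*, *Cd209b*, *Ltc4s*, *Fcgr1*, *Tmem37*, *Chp2*, *Slco2b1* and *Psd3*. With the limit that 3 UMIs over both libraries set, *C3ar1*, a receptor of complement, was at least 168-fold lower in cDC1 cells, and *Fcgr1*, the high-affinity IgG receptor, at least 96.3-fold lower. *Lyve1* and *Cxcl13* each had 1 UMI in all 126 cells, against 526 and 461 CPM and 632 and 208 CPM in WT and TNF-Tg macrophages. *Ms4a7* and *Igf1* completed the 12, also with 1 UMI. One marker went the other way from the rest: *Cd36*, a scavenger receptor, had 61.0 and 20.8 CPM in cDC1 cells against 466 and 381 CPM (-3.31 ± 0.44, adjusted p = 0.00059).

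Against Ly6c2 monocytes, 359 genes were higher in cDC1 cells (3.36%) and 404 lower (3.78%), 7.14% of those tested, and 22 of 24 cDC1 markers were higher (3.36% of all genes). *Sept3* had no UMI in the monocytes of either library and was at least 560-fold higher in cDC1 cells. *Anpep*, an aminopeptidase, had 105 and 57.2 CPM in WT and TNF-Tg cDC1 cells against 1.71 and 0.946 CPM (6.11 ± 0.47, adjusted p = 0.00012). *Gatm*, an enzyme of creatine synthesis, had 97.7 and 222 CPM against 10.2 and 2.84 CPM. *Fgfr1*, *Klrb1b*, *H2-Ob*, *Kit*, *Tlr3*, *Pdia5*, *P2ry14*, *Gcsam* and *Ifi205* were the rest of the 12. The lower side was led by *Fcgr1*, at least 47.9-fold lower, the proteoglycan *Vcan* (2.20 and 0 CPM against 626 and 207 CPM), *Msr1*, *Fgd4*, *Klra2*, *F13a1*, *Sirpb1c*, *Apoc2*, *Pilrb2*, *Trem2* and *Cxcl2*. *F13a1*, which encodes the A chain of coagulation factor XIII, had 10.3 and 7.28 CPM against 1030 and 653 CPM (-6.50 ± 0.43, adjusted p = 7.6e-05).

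Antigen presentation was compared by gene list. In the lists that follow, counts stand against 0.655% higher and 0.73% lower of all genes for Cd209a dendritic cells, 7.99% and 8.85% for macrophages and 3.36% and 3.78% for monocytes. Of 24 genes of MHC class I presentation, 2 were higher in cDC1 cells than in Cd209a dendritic cells, *Wdfy4* and the peptide transporter *Tap2* (129 and 91.5 CPM against 40.7 and 37.9 CPM, 1.52 ± 0.24, adjusted p = 0.0079). Against C1q macrophages 9 were higher and 2 lower. The higher ones included both transporter subunits, *Tap1* and *Tap2*, the immunoproteasome subunits *Psmb8* and *Psmb9*, and the proteasome activators *Psme1* and *Psme2*. *Psme1* had 1033 and 1002 CPM against 291 and 338 CPM (1.98 ± 0.26, adjusted p = 0.00049), and *Psmb9* 502 and 633 CPM against 129 and 140 CPM. The lower ones were *B2m*, the light chain of MHC class I, and the chaperone *Canx*. Against monocytes 6 were higher and 0 lower. *Rab43*, a GTPase tied to cross-presentation, had 250 and 129 CPM in cDC1 cells, against 59.2 and 40.6 CPM in macrophages (2.16 ± 0.26, adjusted p = 0.00036).

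No gene of 15 for MHC class II presentation parted cDC1 cells from Cd209a dendritic cells in edgeR, and their median log2 fold change was -0.24. *H2-Ab1* had 8439 and 6057 CPM in cDC1 cells and 10039 and 6073 CPM in Cd209a dendritic cells, so the groups overlapped. Against macrophages 5 were higher and 1 lower. The 5 were *H2-Oa* and *H2-Ob*, which form the inhibitor of peptide loading, and *H2-DMa*, *H2-DMb1* and *H2-DMb2*, which form the loading factor. *H2-Ob* had 189 and 72.8 CPM against 3.17 and 0.964 CPM (6.17 ± 0.37, adjusted p = 1.3e-05). The lower one was the lysosomal protease *Lgmn*, with 10.3 and 34.3 CPM against 1044 and 1706 CPM.

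Uptake and sensing genes differed member by member. Of 19 uptake and scavenging genes tested, 2 were higher and 5 lower than in Cd209a dendritic cells, and 3 higher and 14 lower than in macrophages (0.655% and 0.73%, and 7.99% and 8.85%, of all genes). *Havcr2*, which encodes the phosphatidylserine receptor TIM-3, had 88.1 and 37.4 CPM against 4.28 and 6.59 CPM in Cd209a dendritic cells (3.65 ± 0.54, adjusted p = 0.0067) and 1.00 and 1.77 CPM in macrophages. *Axl*, *Mertk* and *Tyro3*, the receptors by which macrophages take up dying cells, had no UMI in cDC1 cells. Of 18 innate sensing genes, *Tlr3* and *Tlr11* were higher than in Cd209a dendritic cells, and *Cd14* and *Ddx58* lower. Against macrophages *Tlr12* joined the higher genes, and 7 were lower, among them *Tlr8*, an endosomal sensor of RNA (0.734 and 1.04 CPM against 47.9 and 22.2 CPM). Of 25 interferon-response genes, 0 were higher and 12 lower than in macrophages (7.99% and 8.85% of all genes), although *Ifi205*, outside the list, was higher than in every class compared.

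For migration, *Cxcr3*, the receptor for CXCL9 and CXCL10, had 93.3 and 40.5 CPM in WT and TNF-Tg cDC1 cells against 1.43 and 0.412 CPM in Cd209a dendritic cells (6.19 ± 0.46, adjusted p = 0.00037). *Itgae* was also higher, and *Itgb7*, which encodes its partner chain, was higher than in macrophages (296 and 239 CPM against 10.1 and 17.7 CPM). *Ccr2* had 494 and 288 CPM in cDC1 cells. Of 17 cytokine and chemokine genes, 0 were higher and 6 lower than in macrophages (7.99% and 8.85% of all genes), and 0 higher and 2 lower than in Cd209a dendritic cells. Among the 6 was *Ccl2* (19.8 and 3.12 CPM against 699 and 1313 CPM). *Il12b*, which encodes the cytokine cDC1 cells release after activation, had no UMI in either library. Of 24 proliferation genes, 13 were higher than in macrophages and 15 higher than in monocytes (7.99% and 3.36% of all genes), and *Dut* alone was higher than in Cd209a dendritic cells. *Dut*, which clears dUTP, had 85.2 and 136 CPM against 34.0 and 43.2 CPM (1.53 ± 0.22, adjusted p = 0.0063).

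**Figure D4:**
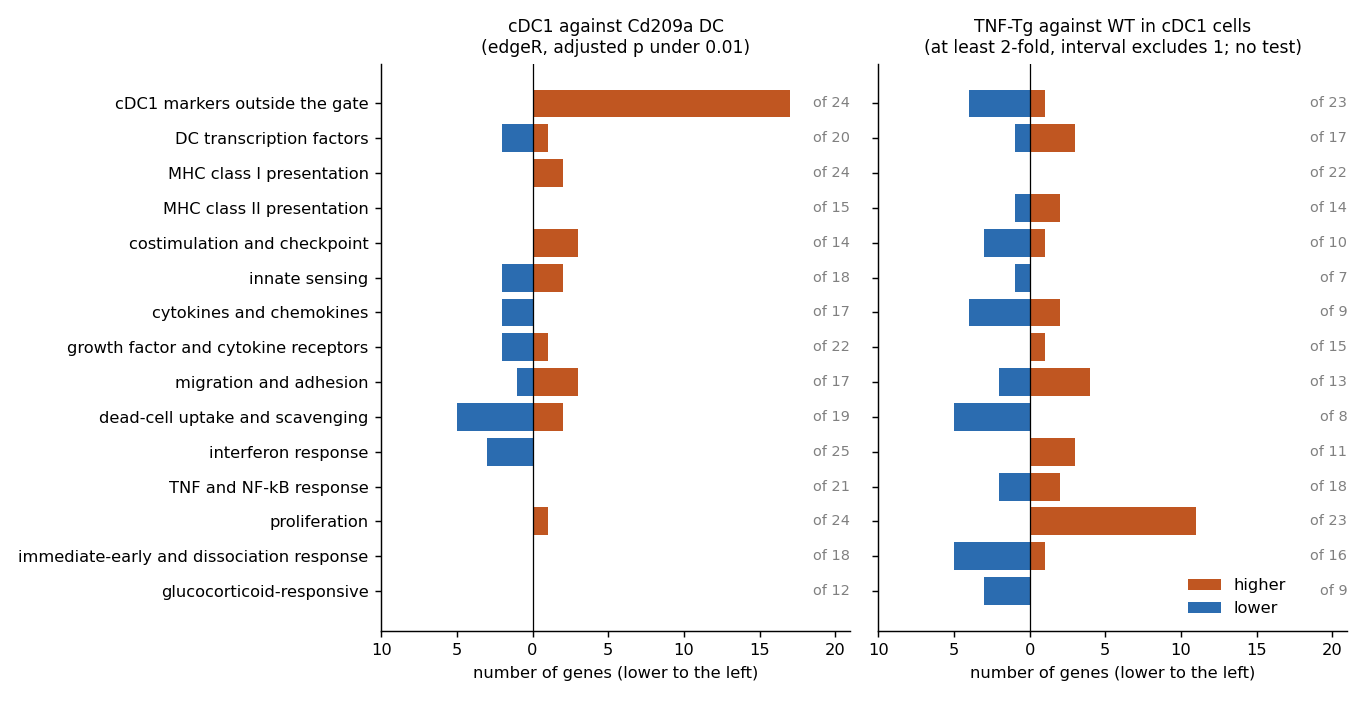
Number of genes of each list (y axis) that were higher (to the right) or lower (to the left) in cDC1 cells than in Cd209a dendritic cells by edgeR (left panel), and in TNF-Tg than in WT cDC1 cells by size with no test (right panel), with the number measured beside each bar. The cDC1 markers stood out on the left, 17 higher of 24, and proliferation on the right, 11 higher of 23.

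TNF-Tg and WT cDC1 cells were then compared with each other to describe the class in arthritic mice. With 1 library each there was no test. A gene was called different when it was at least 2-fold apart, the exact 95% interval of the ratio excluded 1, and both libraries together held at least 30 UMIs. Of 5957 genes with enough UMIs, 480 were higher and 363 lower in TNF-Tg, 14.2% called. The higher genes were 56.9% of the calls under scaling to total UMIs but 41.0% under TMM scaling (344 higher and 496 lower), because the median log2 ratio of all genes was 0.10 and moved to -0.02. Restricted to the 75 and 39 marker-supported cells, 418 were higher (7.34%) and 380 lower (6.67%) of 5698, 14.0% called.

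**Figure D5:**
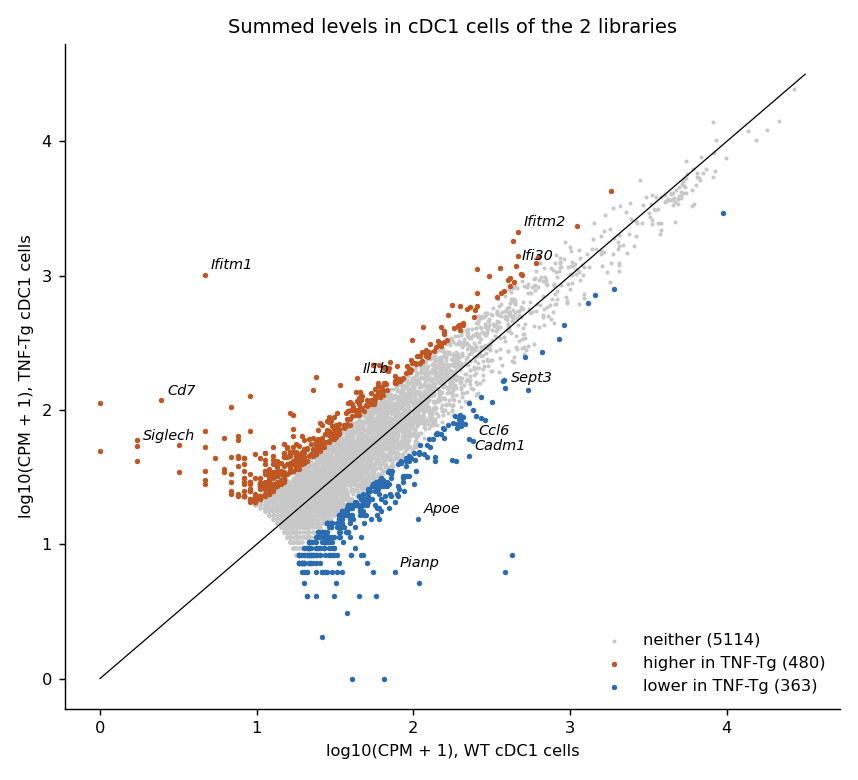
Summed level of each of 5957 genes in WT (x axis) and TNF-Tg (y axis) cDC1 cells, both as log10 of CPM plus 1, with genes called higher in TNF-Tg in orange (480), lower in blue (363) and the rest in grey. The line marks equal levels, and *Ifitm1* lies farthest above it among the labelled genes.

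*Ifitm1*, an interferon-induced membrane protein, led the higher genes. It had 5 UMIs in 3 of 76 WT cells (3.67 CPM, interval 1.19 to 8.57) and 977 UMIs in 24 of 50 TNF-Tg cells (1015 CPM, 953 to 1081). The log2 ratio was 8.11 (6.88 to 9.74). It was as large in marker-supported cells, 8.32, and in Cd209a dendritic cells, where 5.71 and 2325 CPM gave 8.67. In C1q macrophages and Ly6c2 monocytes the ratio was 4.42 and 2.91. *Ifitm2* and *Ifitm6* of the same family were higher too. *Ifitm2* had 462 CPM (WT) and 2120 CPM (TNF-Tg) (2.20, 2.07 to 2.33), and *Ifitm6* 15.4 and 94.6 CPM. *Il1b*, the inflammatory cytokine, had 42.6 CPM in 5 WT cells and 171 CPM in 26 TNF-Tg cells, and its log2 ratio was 2.01 (1.57 to 2.47), with 51 of its 58 WT UMIs in 1 cell. *Fdps*, an enzyme of the mevalonate pathway, had 22.8 and 176 CPM (2.95, 2.39 to 3.55), and *Flot1*, a scaffold of membrane rafts, 33.0 and 153 CPM (2.21, 1.72 to 2.72). Outside cDC1 cells, the log2 ratios in Cd209a dendritic cells, C1q macrophages, Ly6c2 monocytes and stromal cells were 1.57, 0.92, 1.31 and 2.71 for *Fdps*. In the same order they were 1.68, 1.36, -0.01 and 1.14 for *Flot1*, and 2.36, 1.51, -0.59 and -0.08 for *Il1b*. *Ifitm2* had 1.63, 0.19, -0.35 and 0.95, and *Ifitm6* 1.27, 0.19, 0.28 and 1.80. *Ifitm2*, *Ifitm6*, *Il1b*, *Fdps* and *Flot1* were among the 12 highest when the marker-supported cells alone were ranked, and all 5 were called in both.

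Several of the 12 highest genes came from few cells. *Cd7* had 1.47 CPM (WT) and 117 CPM (TNF-Tg), and *Siglech* 0.734 and 53.0 CPM, while among marker-supported cells *Siglech* had 0.739 and 2.44 CPM and was not called. *Cd7* had 0 CPM in marker-supported WT cells and 30.5 CPM in TNF-Tg, where 7 of 39 cells held it, and was not called because it fell under the minimum of 30 UMIs. *Cx3cr1* also fell under that minimum, with 2.22 and 25.6 CPM and a log2 ratio of 3.53 (1.78 to 5.92) in marker-supported cells. *Cd209d* had 4.44 CPM in marker-supported WT cells and 0 in TNF-Tg, so it was no longer called higher. The interval of its log2 ratio there reached up to 0.49. Of the UMIs in the cDC1 cells of both libraries, single cells held 93.1% for *Igkc*, 85.2% for *Ly6d*, 63.9% for *Fabp5* and 44.4% for *Ccl4*. *Igkc* and *Ly6d* had 0 CPM in marker-supported TNF-Tg cells and were not called there. *Rasgrp2*, an activator of the GTPase RAP1, was spread over 24 TNF-Tg cells (3.67 and 52.0 CPM, 3.82, 2.51 to 5.51) and *Gngt2* over 12 (6.61 and 63.4 CPM).

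Among the lower genes, *S100a8*, *S100a9*, *Retnla* and *Chil3* came mostly from single WT cells (96.0%, 94.9%, 78.1% and 98.9% of their UMIs in cDC1 cells). Without the 1 predicted doublet, the log2 ratio of *S100a9* was -1.24, with an interval of -2.70 to 0.03. Others were spread over many cells. *Cadm1*, an adhesion molecule used as a cDC1 marker, had 226 CPM in 69 of 76 WT cells (202 to 253) and 44.7 CPM in 13 of 50 TNF-Tg cells (32.3 to 60.2). Its log2 ratio was -2.34 (-2.84 to -1.88), and -2.17 in marker-supported cells, which were selected in part on *Cadm1* itself. In Cd209a dendritic cells it was near the same level in both libraries, 7.37 and 7.0 CPM. *Pianp* was found in 53 WT and 4 TNF-Tg cells (74.9 and 5.20 CPM, -3.85, -5.50 to -2.58). *Gpr141b*, an orphan receptor, had 176 and 41.6 CPM and hardly any UMI in Cd209a dendritic cells (1.90 and 0 CPM). *Apoe* had 106 CPM in 63 WT cells and 14.6 CPM in 10 TNF-Tg cells (-2.86, -3.77 to -2.07). Its ratio was close to that in Cd209a dendritic cells (-2.56), C1q macrophages (-2.37) and Ly6c2 monocytes (-2.69), and whether free RNA took part was not tested. *Ccl6*, *Fosb*, *Bcl2a1a* and *Gm26532* completed the 12 lowest.

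The lineage markers leaned lower in TNF-Tg. Of 23 with enough UMIs, 4 were lower (*Cadm1*, *Sept3*, *Tlr11* and *Cd36*) and 1 higher (*Itgax*), against 6.09% lower and 8.06% higher of all genes, and under TMM 6 were lower. Their median log2 ratio was -0.56. In marker-supported cells, which were selected on 5 of these markers, 5 were lower and 1 higher and the median was -0.34. *Sept3* had 386 and 146 CPM (-1.41, -1.69 to -1.13). *Itgax*, which encodes CD11c, had 17.6 and 53.0 CPM (1.59, 0.86 to 2.35). *Irf8*, *Batf3*, *Id2*, *Flt3* and *Kit* were not called, and *Batf3* had nearly the same level in both, with a log2 ratio of 0.21 (-0.04 to 0.46). Of 17 transcription factors of dendritic cells, *Batf*, *Zeb2* and *Cebpb* were higher and *Notch2* lower. Under TMM 3 of them were higher and 3 lower. In marker-supported cells 2 were higher and 2 lower: *Zeb2* had 14.8 and 17.1 CPM and was not called, and *Zbtb46* was lower (log2 ratio -1.10). *Cebpb* had 39.7 and 99.8 CPM (1.33, 0.84 to 1.84).

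Of 8 uptake genes with enough UMIs, 5 were lower and 0 higher in TNF-Tg, against 6.09% lower and 8.06% higher of all genes, with the same 5 to 0 count in marker-supported cells and under TMM and 3 to 0 without the cycling and mature cells. They were *Cd36*, *Havcr2*, *Itgav*, *Fcgr2b*, the inhibitory IgG receptor, and *Ly75*, the endocytic receptor DEC-205. *Fcgr2b* had 238 and 98.7 CPM (-1.27, -1.61 to -0.93) and *Havcr2* 88.1 and 37.4 CPM (-1.24, -1.82 to -0.69). *Ly75* rested on 36 and 10 UMIs. *Fcgr2b* was lower in TNF-Tg Cd209a dendritic cells also (538 and 117 CPM), while *Havcr2* there had 4.28 and 6.59 CPM.

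Of 22 genes of MHC class I presentation, 0 were higher and 0 lower, against 8.06% higher and 6.09% lower of all genes for this and the next lists, and 1 was lower under TMM. *Psmb8*, a catalytic subunit of the immunoproteasome, came nearest, with 922 and 1779 CPM (0.95, 0.84 to 1.06), and was past 2-fold in marker-supported cells (1.06). *H2-Q7*, a nonclassical class I gene, was lower there (39.9 and 11.0 CPM, -1.86). *Psme2* had 317 and 507 CPM. In the class II list of 14, the lysosomal thiol reductase *Ifi30* (449 and 1189 CPM, 1.41, 1.26 to 1.55) and *Lgmn* were higher and *H2-Ob* was lower (189 and 72.8 CPM, -1.38, -1.78 to -0.99). *Cd74* and *H2-Ab1*, with the most UMIs of the list, were 0.56 and 0.48 lower on the log2 scale and not called. Of 10 costimulation genes, *Cd86*, *Havcr2* and *Cd226* were lower and *Tnfsf9* higher (6.09% and 8.06% of all genes), and in marker-supported cells neither *Cd86* (-0.84) nor *Tnfsf9* (0.40) was called. Without the cycling and mature cells, 1 of 9 was lower.

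Proliferation genes leaned higher in TNF-Tg. Of 23, 11 were higher and 0 lower, against 8.06% and 6.09% of all genes, with a median log2 ratio of 0.91. The count was 8 higher in marker-supported cells (against 7.34%, median 0.88) and 8 under TMM (median 0.79). *Mcm6* and *Mcm7* encode subunits of the replicative helicase. *Mcm7* had 29.4 and 74.8 CPM (1.35, 0.77 to 1.94) in 11 and 16 cells, and *Birc5*, a gene of mitosis, 37.5 and 112 CPM (1.58, 1.09 to 2.09) in 5 and 6 cells. Without the cells in the cycling and mature states, 11 genes had enough UMIs and 4 were higher. The share of cycling cells itself did not differ beyond counting error, as above.

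Of 16 immediate-early genes, which respond to stimulation and also to tissue digestion, 5 were lower and 1 higher, against 6.09% lower and 8.06% higher of all genes, and 7 were lower under TMM. *Dusp1* had 538 and 140 CPM (-1.94, -2.21 to -1.67), *Fosb* 186 and 40.5 CPM and *Egr1* 250 and 89.4 CPM, and *Atf3* and *Klf6* were lower as well. *Ier3*, a survival gene that NF-kB induces, was higher (46.3 and 126 CPM, 1.44, 0.99 to 1.91). *Dusp1* was lower in TNF-Tg Cd209a dendritic cells, C1q macrophages and Ly6c2 monocytes too (-1.07, -0.98 and -0.95). Each library was digested separately, and the part of digestion in these values was not tested.

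The response to TNF was read from a list. Of 18 genes of the TNF and NF-kB response, 2 were higher (*Nfkbie* and *Sod2*) and 2 lower (*Birc3* and *Bcl2a1b*), against 8.06% higher and 6.09% lower of all genes. *Sod2*, which encodes mitochondrial superoxide dismutase, had 60.2 and 124 CPM (1.04, 0.62 to 1.46). Under TMM 1 gene of the list was higher, and *Nfkbie* was not called in marker-supported cells. *Tnfrsf1a*, the widely expressed TNF receptor, had 34.5 and 27.0 CPM, and *Tnfrsf1b* 8.08 and 12.5 CPM, on 11 and 12 UMIs. Of 11 interferon-response genes, *Irf7*, *Bst2* and *Ly6a* were higher and 0 lower, and of these *Irf7* alone was called in marker-supported cells (28.1 and 59.7 CPM). Of 9 glucocorticoid-responsive genes, *Tsc22d3*, *Per1* and *Ddit4* were lower, and *Per1* was under the UMI minimum in marker-supported cells. There, 3 of the 8 genes with enough UMIs were lower, without *Per1*. When the cycling and mature cells were left out, 7 genes of the list had enough UMIs and 0 were lower. *Tsc22d3*, which encodes GILZ, had 140 and 66.5 CPM (log2 ratio -1.07).

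Migration and cytokine genes were mixed. Of 13 migration genes, *Cxcr3* and *Cadm1* were lower, and 4 were higher, among them *Itgax*, *Ccr9* and *Cx3cr1*, against 6.09% lower and 8.06% higher of all genes. In marker-supported cells, 1 of 10 was higher, *Itgax*, and 3 were lower, *Cxcr3*, *Cadm1* and *Itga4*. There *Cx3cr1* was under the UMI minimum with its fold given above, and *Ccr9* had 8.13 and 6.09 CPM. *Cxcr3* had 93.3 and 40.5 CPM (-1.20, -1.76 to -0.67). Of 9 cytokine genes, *Il1b* and *Ccl4* were higher and *Il18*, *Ebi3*, *Ccl2* and *Ccl6* lower, and *Il18* was not called in marker-supported cells (-0.78). Without the predicted doublet, or without the cycling and mature cells, 2 were lower. *Ccl6* had 239 CPM in 68 WT cells and 58.2 CPM in 21 TNF-Tg cells (-2.04, -2.48 to -1.63), with a ratio of -1.92 in Cd209a dendritic cells and 0.67 in C1q macrophages. Of 15 growth factor and cytokine receptors 1 was higher, *Csf1r* (5.88 and 28.1 CPM), which was under the UMI minimum in marker-supported cells (5.91 and 19.5 CPM), and of 7 innate sensors 1 was lower, *Tlr11*.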

How the data were processed

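Single-cell RNA-seq counts were analysed as deposited: the authors' matrices give whole UMI counts per gene and cell barcode. The submitters' processing notes name Cell Ranger 3.1.0, Seurat 4.0.3 and mm10, and the headers of the WT and TNF-Tg matrices name Cell Ranger 6.0.1. Cells were gated and summed in Python 3.11.15 (numpy 2.4.6, pandas 2.3.3, scipy 1.17.1, scanpy 1.11.5). Predicted doublets were kept and left out as an alternative. Class sums were tested with edgeR 4.0.16 in R 4.3.3 (TMM scaling, filterByExpr, quasi-likelihood test, library as block, Benjamini-Hochberg adjustment), without the gate genes. DESeq2 1.42.0 was an alternative. The block is the library, which each class shares because its cells come from the same pool of mice. The named genes were the 12 largest changes in each direction with at least 50 CPM in the higher group, plus list members chosen by UMIs or size of change. In the class comparisons, the 12 also had to pass the adjusted p threshold and to go the same way in both libraries. TNF-Tg and WT ratios have exact conditional intervals and no test. The scripts were tested on simulated data. The members, gene lists and comparators were chosen with earlier results of these data known. Promoters came from RefSeq (GRCm38.p6), and gene coordinates from GENCODE on the same assembly. Some genes that the rules would name are not reported here.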

Additional observations from a re-analysis of the deposited data

Results flagged for a closer look

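In the first of the libraries sorted for the tdT reporter, outside the comparisons above, 8 of 1504 cells passed the cDC1 gate (0.532%, exact 95% interval 0.230 to 1.05%). Of the 24 cDC1 markers, 21 were higher in these 8 cells than in the 28 Cd209a dendritic cells of that library. One of the 8 had 16 UMIs of *Cd7*, 23 of *Tcf4*, 50 of *Ly6c2*, 5 of *Siglech* and 14 of *Cd209a*, genes that were also higher in the few-marker than in the marker-supported TNF-Tg cells, with 7 UMIs over the 5 supporting markers, and the sums below include it. *Irf8* had 1991 CPM against 14.9 CPM, *Wdfy4* 720 against 125 CPM and *Cadm1* 276 against 34.0 CPM. In the other tdT library, 3 of 454 cells passed (0.661%).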

How the results depend on the processing

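Among the 72 pairs of a named gene and a class comparison and the 24 genes named for TNF-Tg against WT, none changed sign under an alternative that left enough UMIs for a value. Of those 24, 14 had a value with at least 1 UMI of each gate gene, and 4 of them moved. With at least 3 UMIs 16 had a value and 3 moved, and in marker-supported cells 17 had a value and 0 moved. Without the predicted doublets 2 of 23 moved, and without the cycling and mature cells 2 of 21. Below the UMI minimum or among other list members, *Ccr9* (-0.42), *Tcf4* (-0.31) and *Ly6a* (-0.20) had log2 ratios below 0 in marker-supported cells and were not called. All had been called higher in TNF-Tg over all gated cells. *Cd209d*, also called higher over all gated cells, had no UMI in marker-supported TNF-Tg cells. Its log2 ratio of -0.28 is the limit that 3 UMIs would set, with an interval up to 0.49. The share ratio, whose interval spans 0, also changed sign. The log2 ratio of the cDC1 shares moved to -0.54 with at least 3 UMIs of *Xcr1* and *Clec9a*, -1.08 with at least 1 of each and -0.60 after thinning to 3000 UMIs. Thinning moved the cycling share to 3.95% in WT and 10.0% in TNF-Tg and the mature share of WT to 0. For TNF-Tg against WT, 276 genes were higher with at least 1 UMI of each gate gene, and 204 were higher and 115 lower with a minimum of 100 UMIs. Against Cd209a dendritic cells, the higher and lower counts were 179 and 190 in DESeq2, 315 and 516 with no filter, 6 and 5 with no replicate block by library and 157 and 177 with all 4 libraries, and 131 were lower in marker-supported cells. The fit with all 4 libraries took sums of at least 10 cells and tested 8801 genes. The 8 and 3 cDC1 cells of the tdT libraries were too few to enter, so those libraries added sums of the other classes only. Against C1q macrophages, 389 were higher and 512 lower with no replicate block, and 1641 lower with no filter. Against Ly6c2 monocytes, 570 were higher in DESeq2, 757 higher and 938 lower with no filter, and 140 higher and 164 lower with no replicate block. Of these 72 pairs, 20 lost their call without the block, 17 of them against Cd209a dendritic cells, and *Chp2* lost it in DESeq2 (adjusted p = 0.167). The same direction in each library alone was a condition for naming these 72, so it is no check of them. Of the 72, 49 in WT alone and 55 in TNF-Tg alone moved by more than 1 SE (*Irf8* against Cd209a dendritic cells to 7.69 and 4.30). There, no residual degrees of freedom were left and calls could not be counted. The restrictions to marker-supported cells and to genes with no dominant cell were chosen after seeing the data. The cause of these changes was not tested.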
